A study of Oryza sativa Japonica Group with 12 samples.

Results

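The difference between a rice mutant and wild type was compared between seedlings of 7 and 11 d, gene by gene, and the genes were followed for which that difference had opposite signs at the 2 ages. The mutant, gs1;2, is homozygous for the loss of cytosolic glutamine synthetase 1;2, and both genotypes were of the cultivar Nipponbare. The tissue was the basal 5 mm of shoots grown in water culture with 1 mM ammonium as their nitrogen. The 4 groups were wild type at 7 d, mutant at 7 d, wild type at 11 d and mutant at 11 d, with 3 Affymetrix Rice Genome Arrays each and 12 arrays in all. All 12 arrays entered every comparison. Of 17905 genes with a probe set of their own, 83 had at least 1 probe set that crossed, meaning that the mutant was higher at one age and lower at the other, with both differences and their change past the threshold.

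Glutamine synthetase joins ammonium to glutamate to make glutamine, and cytosolic forms do this for ammonium taken up by the root and released in growing tissue. In rice, plants without the GS1;2 form are known to make fewer tillers. The base of the shoot holds the shoot apex, the youngest leaf bases, the nodes and the axillary buds from which tillers grow. A genotype difference that changes with age can come from 1 group that stands apart, or from both genotypes moving in opposite directions. It can also come from 1 genotype moving past the other, or from both moving the same way by unequal amounts. The group means describe these patterns.

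Values are deposited log2 signals, so a difference of 1 is a change of signal by 2 times. The change of the genotype difference, called the interaction, is the difference mutant minus wild type at 11 d minus the same at 7 d. It was tested with limma over 57194 probe sets, with 0.05 as the threshold on the adjusted p. Arrays of the same group correlated at 0.994 to 0.997, while wild type at 11 d correlated with the other 3 groups at 0.978 to 0.985. Each label gives the same greenhouse, but the growth text also describes another chamber and 18 d for samples numbered 13 to 36. The numbers 13, 14 and 15 stand in the titles of wild type at 11 d. A different growth condition of that group cannot be told apart from genotype and age, and every interaction rests on it. The titles also carry the word 3rd at 7 d and 4th at 11 d, with no explanation, and whatever this marks cannot be told apart from age.

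The gene for the missing enzyme, GLN1-2, was read first. It gave 12.38, 12.31 and 12.46 in wild type at 7 d and 12.44, 12.42 and 12.50 in wild type at 11 d. In the mutant it gave 7.76, 7.65 and 7.80 at 7 d, and 8.37, 8.65 and 11.44 in the arrays labelled mutant at 11 d. The last of these, replicate 3 and hereafter the array in doubt, lies near wild type in this gene and goes against its label. The interaction of GLN1-2 was 1.68 (SE 0.80, adjusted p = 0.173) with all arrays and 0.71 (adjusted p = 0.00316) when replicate 3 was left out. Calls and list counts that change when it is left out are given beside the values with all arrays.

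The genotype difference changed with age in a large part of the genes. The interaction passed for 11780 probe sets, 20.6% of all tested, of which 5645 (9.87%) had a higher and 6135 (10.7%) a lower mutant-minus-wild-type difference at 11 d than at 7 d. Their median size was 0.69, and 620 had a size of at least 2. Without the array labelled mutant 11 d replicate 3, 10935 passed, of which 10288 were the same probe sets. At single ages, 556 (0.972%) passed at 7 d, 0.558% higher and 0.414% lower in the mutant, and 14820 (25.9%) passed at 11 d, 12.8% higher and 13.1% lower. Counted by gene, these were 1.25% at 7 d (0.787% higher, 0.464% lower) and 46.7% at 11 d (23.9% higher, 22.8% lower). Between the ages 18208 probe sets (31.8%) passed in wild type, 15.0% upwards and 16.8% downwards, and 4846 (8.47%) in the mutant, 3.61% upwards and 4.86% downwards. By gene these age shares were 53.8% (25.5% and 28.4%) and 15.5% (6.51% and 8.98%).

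Opposite signs were common when only the estimates are read. The difference had opposite signs at the 2 ages in 54.2% of all probe sets and in 80.5% of those whose interaction passed. The second share follows in part from the test, since a sign change makes an interaction larger. A reading that does not share arrays takes the probe sets that passed at one age and looks at their sign at the other. Of the 556 that passed at 7 d, 254 (45.7%) had the opposite sign at 11 d. The share was 37.3% for the 319 that were higher in the mutant at 7 d and 57.0% for the 237 that were lower. Among the 14820 that passed at 11 d, 8920 (60.2%) had the opposite sign at 7 d, where few of them passed. Both ages passed for 309 probe sets, with opposite signs in 130 and the same sign in 179.

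**Figure D1:**
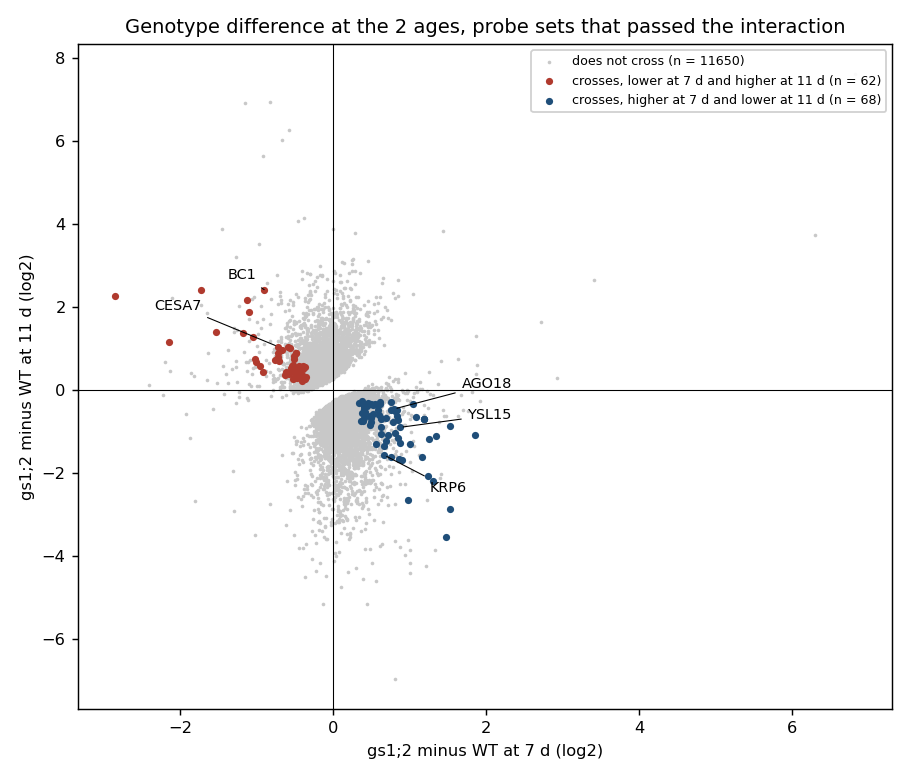
Mutant minus wild type at 7 d (horizontal, log2) against the same difference at 11 d (vertical, log2) for the 11780 probe sets whose interaction passed. The 130 that crossed lie in the upper left (62, red) and lower right (68, blue), and the 11650 others (grey) spread mainly along the vertical axis.

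The 130 probe sets that passed at both ages with opposite signs are the crossing set, 0.227% of the probe sets tested. All 130 passed the interaction, which follows in large part from the rule, since differences of opposite sign add up in it. In 62 of them (0.108%) the mutant was lower at 7 d and higher at 11 d, and in 68 (0.119%) it was higher at 7 d and lower at 11 d. The median size of the difference was 0.59 at 7 d and 0.62 at 11 d, and 17 had a size of at least 1 at both ages. Crossing probe sets were bright, with a median level of 7.27 against 4.98 over all probe sets. The number crossing depended strongly on single arrays. It was 59, 15 and 51 without wild-type 7 d replicate 1, 2 and 3, and 730, 54 and 24 without mutant 7 d replicate 1, 2 and 3. It was 106, 67 and 68 without wild-type 11 d replicate 1, 2 and 3, and 69, 86 and 111 without the arrays labelled mutant 11 d replicate 1, 2 and 3. The crossing call held in all 12 of these fits for 8 of the 130 probe sets.

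Of 13 crossing genes with an informative name, 12 crossed in their probe set with the highest mean and are described here, and the remaining one, rps20 (named after its values were seen), crossed in another probe set. They are BC1, CESA7 and CESA4 of the secondary cell wall, KRP6, ORC3 and RFC5 of the cell cycle and DNA replication, RH10, WDR12, RAN1, the iron transporter gene YSL15, AGO18 and STLP3. In 8 of the 12 the mutant was lower at 7 d and higher at 11 d, and in 4 the reverse. At both ages the mutant arrays and wild-type arrays of all 12 genes did not overlap. The genes were chosen by differences that passed on these same arrays, so this follows in large part from the choice. The crossing call held for 9 of the 12 when the array labelled mutant 11 d replicate 3 was left out, and in 2 to 10 of the 12 fits with 1 array fewer, so no named gene kept it in all.

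**Figure D2:**
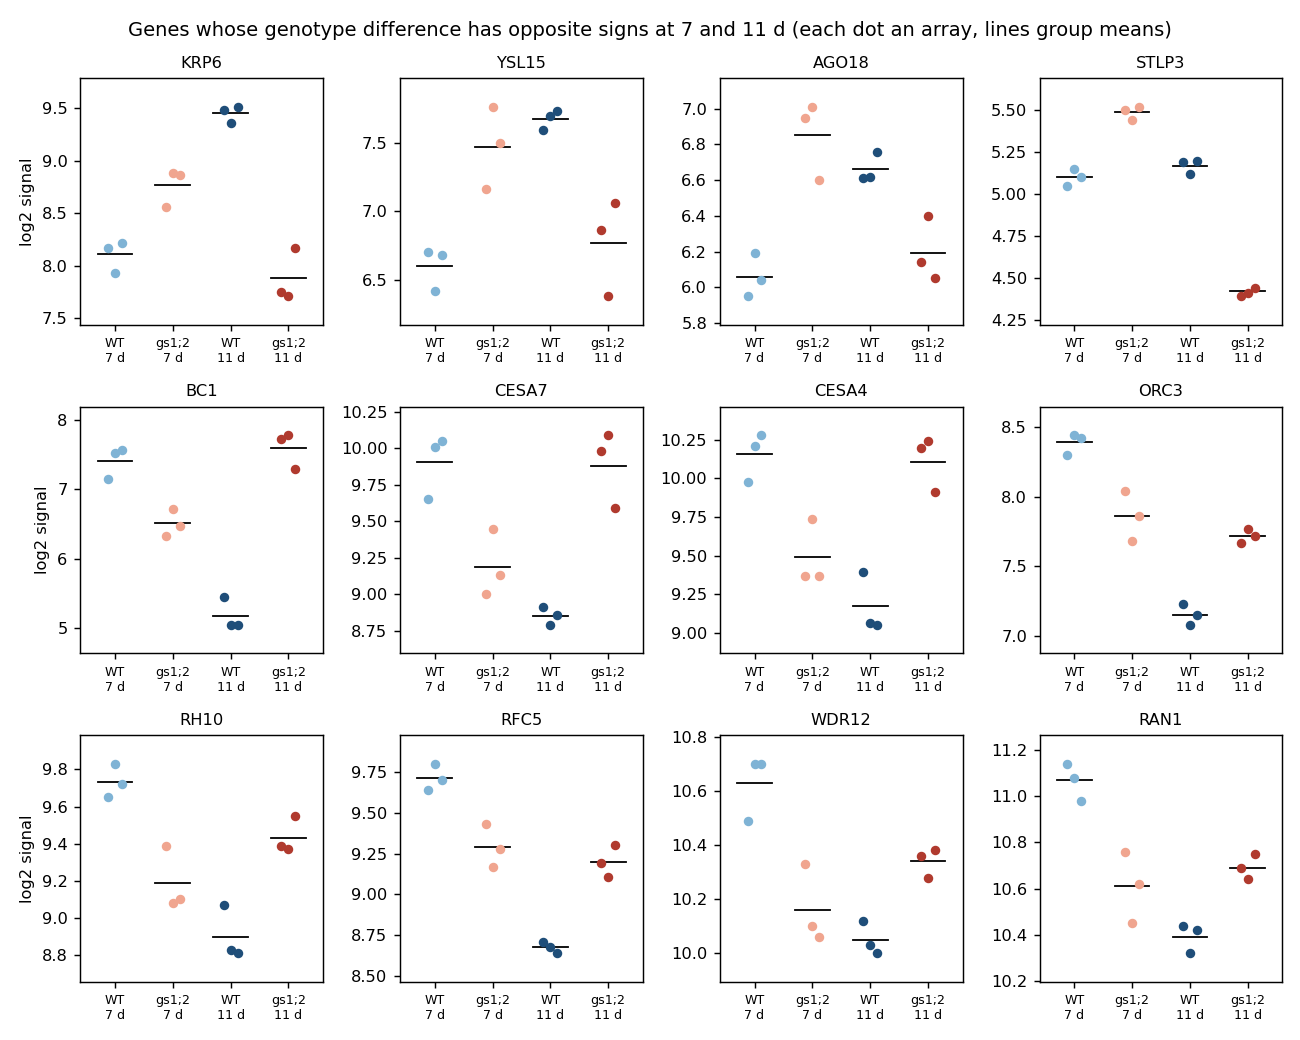
Log2 signal of the 12 named crossing genes in every array, with 3 dots and a line at the mean for each group, on an axis that does not start at 0. In KRP6, YSL15, AGO18 and STLP3 the mutant lies above wild type at 7 d and below it at 11 d, and in the other 8 the order is reversed, as in BC1, where the wild-type mean fell from 7.41 to 5.18 while the mutant mean rose from 6.51 to 7.60.

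The genes that build cellulose in secondary walls gave the largest named crossing. BC1, a COBRA-like protein needed for ordered cellulose and for the strength of the culm, gave 7.15, 7.52 and 7.57 in wild type and 6.33, 6.72 and 6.47 in the mutant at 7 d. At 11 d it gave 5.45, 5.05 and 5.05 in wild type and 7.72, 7.78 and 7.29 in the arrays labelled mutant. Wild type lay above the mutant at 7 d and was the lowest of the 4 groups at 11 d. The mutant was lower by 0.90 at 7 d (adjusted p = 0.0280) and higher by 2.41 at 11 d (adjusted p = 1.18e-06), an interaction of 3.31 (SE 0.23, adjusted p = 9.21e-06). The crossing call held in 9 of the 12 fits and was lost without wild-type 7 d replicate 2 or 3 or mutant 7 d replicate 3.

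CESA7 and CESA4 are catalytic subunits of the cellulose synthase complex of secondary walls, and both crossed in the same direction as BC1. CESA7 gave 9.65, 10.01 and 10.05 in wild type and 9.00, 9.45 and 9.13 in the mutant at 7 d, then 8.91, 8.79 and 8.86 in wild type and 9.98, 10.09 and 9.59 in the arrays labelled mutant at 11 d. Its differences were -0.71 (adjusted p = 0.0482) and 1.03 (adjusted p = 0.000248), so it lay just inside the threshold at 7 d. CESA9, the remaining catalytic subunit, lay just outside it, with -0.68 (adjusted p = 0.0502) and 0.69 (adjusted p = 0.00337), and it passed the interaction at 1.37 (SE 0.20, adjusted p = 0.000566). CESA9 crossed when the array labelled mutant 11 d replicate 3 was left out, with -0.68 at 7 d (adjusted p = 0.0301) and 0.83 at 11 d (adjusted p = 0.00112).

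CESA4 was at 9.98, 10.21 and 10.28 in wild type and 9.37, 9.74 and 9.37 in the mutant at 7 d, and at 9.39, 9.06 and 9.05 against 10.20, 10.24 and 9.91 at 11 d. The differences of -0.66 (adjusted p = 0.0439) and 0.95 (adjusted p = 0.000225) made an interaction of 1.61 (SE 0.19, adjusted p = 0.000135), and a second probe set of CESA4 crossed as well, at -0.71 and 0.78. In all these genes wild type fell with age while the mutant rose. For CESA7 the age difference was -1.05 in wild type (adjusted p = 0.000155) and 0.69 in the mutant (adjusted p = 0.0125). Each of the CESA4 and CESA7 calls held in 3 of the 12 fits.

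Over the list of 18 genes for secondary wall cellulose and xylan, 10 had a higher interaction, 2 a lower one and 6 did not pass, and 3 crossed. Over all genes, 38.2% passed, 18.6% higher and 19.6% lower, and 0.408% crossed. The list's median difference was -0.05 at 7 d and 0.42 at 11 d, beside 0.01 and 0.02 over all genes. The xylan glycosyltransferase gene GT43A, at 1.24 (SE 0.11, adjusted p = 2.68e-05), was among the 10. Of 27 genes for lignin precursors and laccases, 11 were higher and 2 lower (14 and 2 without the array in doubt), with a median of 0.16 at 7 d and 0.65 at 11 d. LAC10, a laccase gene, had opposite signs without passing at 7 d, with -0.98 (adjusted p = 0.0620) and 1.34 (adjusted p = 0.000666). The cinnamyl alcohol dehydrogenase gene CAD2 had an interaction of 1.39 (adjusted p = 0.000374), while CAD8C, at -0.87 (adjusted p = 0.000848), and the laccase gene LAC7, at -3.12 (adjusted p = 0.000127), went the other way.

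Among genes of cell division, KRP6 crossed from higher to lower and ORC3 and RFC5 from lower to higher. KRP6, an inhibitor of cyclin-dependent kinases, was at 8.17, 7.93 and 8.22 in wild type and 8.56, 8.88 and 8.86 in the mutant at 7 d. At 11 d wild type gave 9.48, 9.36 and 9.51, the highest values of the gene, and the arrays labelled mutant gave 7.75, 7.71 and 8.17. The difference went from 0.66 (adjusted p = 0.0381) to -1.57 (adjusted p = 4.28e-06), an interaction of -2.23 (SE 0.18, adjusted p = 1.76e-05). KRP6 rose with age in wild type by 1.34 (adjusted p = 1.02e-05) and fell by 0.89 in the mutant (adjusted p = 0.00113). A second, dim probe set of KRP6 passed the interaction at -0.42 (adjusted p = 0.00923) without crossing, and the crossing call held in 3 of the 12 fits.

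ORC3, a subunit of the complex that marks replication origins, gave 8.30, 8.44 and 8.42 in wild type and 8.04, 7.68 and 7.86 in the mutant at 7 d, and 7.23, 7.08 and 7.15 against 7.67, 7.77 and 7.72 at 11 d. Wild type dropped below the mutant, which itself differed little between the ages. The interaction was 1.10 (SE 0.13, adjusted p = 0.000124), from -0.53 (adjusted p = 0.0215) and 0.57 (adjusted p = 0.000551). RFC5, a subunit of the loader of the replication clamp, had the same pattern, with 9.64, 9.80 and 9.70 against 9.43, 9.17 and 9.28 at 7 d. At 11 d it was at 8.71, 8.68 and 8.64 against 9.19, 9.11 and 9.30. Its interaction was 0.95 (SE 0.12, adjusted p = 0.000187), and its crossing call held in 2 of the 12 fits, while that of ORC3 held in 8.

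Of the 30 genes of the DNA replication list 19 had a higher interaction, 0 a lower one and 11 did not pass, and in all 19 the mean of wild type at 11 d was the departing one and the sign changed between the ages. By the rule for a clear departure given below, wild type at 11 d departed clearly in 12 of the 19, against 39.9% of all genes that passed. Over all genes the sign changed in 5427 of the 6835 that passed, and wild type at 11 d was the departing group in 77.6% of them. The median difference was -0.20 at 7 d and 0.46 at 11 d, although just 2 members passed at 7 d. The helicase gene MCM3, with an interaction of 1.11 (SE 0.12, adjusted p = 7.35e-05), gave 10.60, 10.68 and 10.57 and 10.55, 10.25 and 10.49 at 7 d in wild type and mutant. At 11 d wild type was at 9.68, 9.65 and 9.61, below all 9 other arrays, and the arrays labelled mutant at 10.61, 10.62 and 10.50. The interactions of RPA1B, a single-strand binding protein, OsMCM6, a helicase subunit, and PCNA, the replication clamp, were 1.44, 1.06 and 1.12, with adjusted p-values of 7.98e-05, 0.000111 and 0.0001. Of 5 histone genes 4 were higher and 0 lower, from 0.71 for H2B.10 and 0.56 for H2B.7 to 0.42 for H2B.5 and 0.30 for H2B.6. The H2B.6 call (adjusted p = 0.0388) held in 2 of the 12 fits with 1 array fewer and was lost with quantile normalization, at 0.25. The list of 39 cyclin, CDK and KRP genes was mixed, with 11 higher and 9 lower, and 13 and 10 without the array in doubt.

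Beside these genes, the 5 class I KNOX genes that mark the shoot meristem had 1 higher and 1 lower interaction, OSH6 at 0.51 and OSH71 at -0.43 (named after their values were seen). The summed level of the 5 was 11.90 to 12.32 in wild type and 11.93 to 12.24 in the mutant at 7 d, and 12.20 to 12.39 and 12.20 to 12.24 at 11 d, so the ranges overlapped in every pair of groups. In samples of a whole segment, fewer cells of a type and less RNA per cell cannot be told apart.

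RH10, WDR12 and RAN1 crossed by smaller amounts, from lower to higher in the mutant. RH10 encodes a DEAD-box RNA helicase that acts in ribosomal RNA processing. It gave 9.65, 9.83 and 9.72 against 9.39, 9.08 and 9.10 at 7 d, and 9.07, 8.83 and 8.81 against 9.39, 9.37 and 9.55 at 11 d. Its interaction was 1.07 (SE 0.15, adjusted p = 0.000324), and the other 2 probe sets of the gene passed the interaction at 1.00 and 0.93 without passing at 7 d.

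WDR12, a ribosome assembly factor known from yeast and mammals, was at 10.49, 10.70 and 10.70 against 10.33, 10.10 and 10.06 at 7 d, and at 10.12, 10.03 and 10.00 against 10.36, 10.28 and 10.38 at 11 d. RAN1, a small GTPase of nuclear transport, was at 11.14, 11.08 and 10.98 against 10.76, 10.45 and 10.62, then at 10.44, 10.32 and 10.42 against 10.69, 10.64 and 10.75. In both genes wild type at 7 d was the highest group and wild type at 11 d the lowest. Each had an interaction of 0.76 (adjusted p = 0.00104 for WDR12 and 0.000822 for RAN1), but without the array labelled mutant 11 d replicate 3 the difference at 11 d did not pass, at 0.27 (adjusted p = 0.0804) for WDR12 and 0.27 (adjusted p = 0.0661) for RAN1.

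The remaining named genes crossed from higher to lower. YSL15, which carries iron chelated by deoxymugineic acid into cells, was at 6.70, 6.42 and 6.68 in wild type and 7.16, 7.76 and 7.50 in the mutant at 7 d, and at 7.59, 7.69 and 7.73 against 6.86, 6.38 and 7.06 at 11 d. The mutant started near the later wild-type level and ended near the earlier one. The difference went from 0.87 (adjusted p = 0.0381) to -0.91 (adjusted p = 0.00180), an interaction of -1.78 (SE 0.24, adjusted p = 0.000337), and the crossing call held in 3 of the 12 fits.

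AGO18, an Argonaute protein of antiviral defence in rice, gave 5.95, 6.19 and 6.04 against 6.95, 7.01 and 6.60 at 7 d, and 6.61, 6.62 and 6.76 against 6.14, 6.40 and 6.05 at 11 d. The interaction was -1.26 (SE 0.17, adjusted p = 0.000312). The highest group here was the mutant at 7 d. Its call held in 10 of the 12 fits, the most among the named genes, but the difference at 11 d did not pass without the array labelled mutant 11 d replicate 3, at -0.39 (adjusted p = 0.0516). A second, dim probe set of AGO18 did not pass at either age. STLP3 gave 5.05, 5.15 and 5.10 against 5.50, 5.44 and 5.52 at 7 d, and 5.19, 5.12 and 5.20 against 4.39, 4.41 and 4.44 at 11 d. Wild type stayed level in STLP3 (age difference 0.07, adjusted p = 0.476) while the mutant fell by 1.07 (adjusted p = 1.49e-06), and the interaction was -1.14 (SE 0.09, adjusted p = 1.40e-05).

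SUT1, a sucrose transporter that loads the phloem, was another named gene just outside the threshold at 7 d. It was at 7.68, 7.86 and 8.00 against 8.24, 8.76 and 8.58 at 7 d, with a difference of 0.69 (adjusted p = 0.0506), and at 9.99, 10.15 and 10.00 against 9.03, 9.10 and 8.63 at 11 d. The difference at 11 d was -1.13 (adjusted p = 0.000107) and the interaction -1.81 (SE 0.21, adjusted p = 0.000103). When the array labelled mutant 11 d replicate 3 was left out SUT1 crossed, with 0.69 at 7 d (adjusted p = 0.0302) and -0.98 at 11 d (adjusted p = 0.000386). It was also the sole phloem marker that could be matched.

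Among crossing probe sets without an informative name, the 3 with the largest interaction in each direction were picked out once their values were known. LOC4324704 was the one of these 6 that kept its crossing call in all 12 fits. It gave 8.16, 9.15 and 8.51 in wild type and 6.64, 6.28 and 6.47 in the mutant at 7 d, and 5.11, 5.36 and 5.38 against 6.39, 6.53 and 6.37 at 11 d. The mutant was at the same level at both ages, within 0.04, while wild type fell by 3.32 (adjusted p = 5.18e-07) from above it to below it. The interaction was 3.29 (SE 0.27, adjusted p = 1.76e-05).

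A probe set with no gene listed had the largest downward interaction of the crossing set, -5.02 (SE 0.39, adjusted p = 1.23e-05 by limma). It gave 5.75, 6.17 and 5.67 against 6.71, 7.98 and 7.32 at 7 d, and 9.80, 9.85 and 9.94 against 5.87, 6.40 and 6.69 at 11 d. The opposite crossing was largest in another probe set with no gene listed, at 7.86, 7.58 and 8.28 against 5.92, 4.65 and 4.62 at 7 d. At 11 d it was at 6.58, 5.86 and 5.41 against 7.64, 9.31 and 7.69, an interaction of 5.11 (SE 0.65, adjusted p = 0.000214). Other large crossings were LOC4344199 at -4.40, LOC4343485 at -3.65 and one more with no gene listed at 4.12.

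Across the crossing set the wild type moved more than the mutant. The age difference passed in wild type for 125 of the 130 probe sets and in the mutant for 43, and in 36 it passed in both with opposite signs. The median size of the age difference was 0.96 in wild type and 0.23 in the mutant. Both mutant means lay between the 2 wild-type means in 103 of the 130 (79.2%), against 28.7% of all probe sets and 48.9% of those whose interaction passed. Both wild-type means lay between the mutant means in 11 (8.46%). The rule that chose the set shapes these shares, so they are given as a description. Among the 12 named genes the pattern with the mutant means between the wild-type means held in 8.

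To read which group stood apart, the departing group was taken as the one without which the other 3 group means have the smallest range. It departed clearly when that range was at most 0.5 of the gap between it and the nearest of the others. Among the 11780 probe sets whose interaction passed, the departing group was wild type at 11 d in 8705 (73.9%), mutant at 11 d in 1579 (13.4%), wild type at 7 d in 1198 (10.2%) and mutant at 7 d in 298 (2.53%). Over all probe sets the shares were 43.0%, 19.1%, 22.7% and 15.2%. Clear departures numbered 4343 for wild type at 11 d (36.9%, against 14.9% of all probe sets), 524 for mutant at 11 d (4.45% against 4.29%), 157 for wild type at 7 d (1.33% against 4.61%) and 52 for mutant at 7 d (0.441% against 2.82%). The share of clear departures of the mutant at 11 d was thus close to that of all probe sets. Of the clear departures of wild type at 11 d, 2776 were upwards and 1567 downwards, and of those of the mutant at 11 d, 348 were upwards and 176 downwards.

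None of the 130 crossing probe sets had a clear departure (0). Such departures made up 43.1% where the interaction passed and 26.6% of all probe sets. The rule that chose the set makes them unlikely, since it asks for passing differences at both ages. A clear departure keeps the difference at the age without the departing group within 0.5 of the gap. The absence is thus given as a description. The departing group was wild type at 11 d in 58 of the 130, wild type at 7 d in 57, mutant at 7 d in 10 and mutant at 11 d in 5. In the 103 with both mutant means between the wild-type means, the departing group is a wild-type group by the rule.

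**Figure D3:**
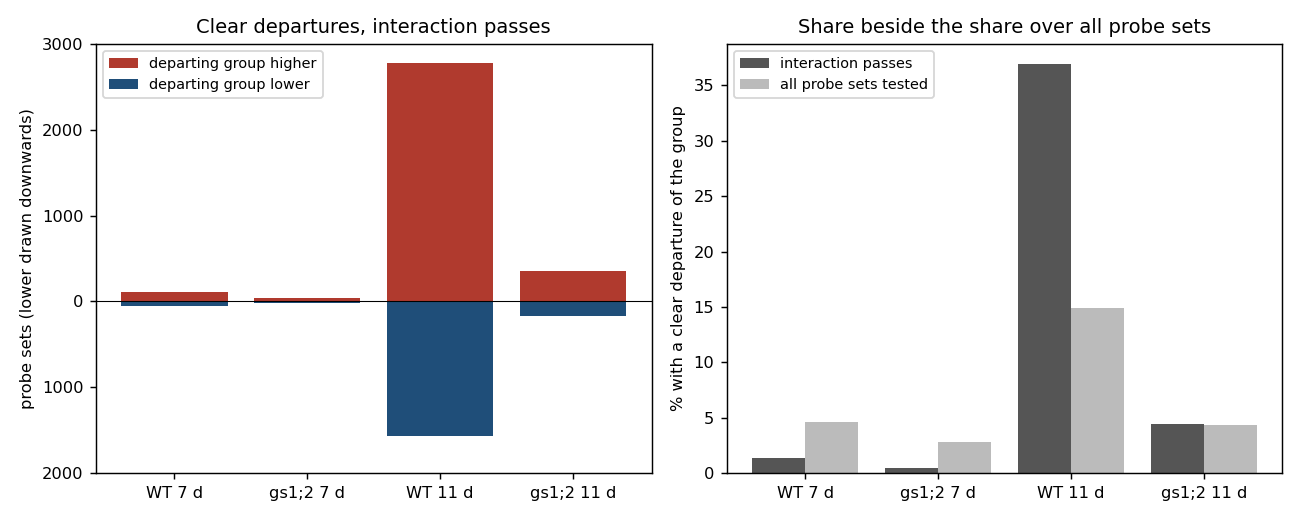
Left, number of probe sets with a passing interaction in which each group departed clearly, upwards (red) or downwards (blue, drawn below 0). Right, the same as a percentage of the 11780 probe sets (dark) beside the percentage over all 57194 probe sets tested (light), where wild type at 11 d is at 36.9% against 14.9%.

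The largest clear departures of wild type at 11 d among genes with an informative name were AMY1.3, SAUR39 and PIN4 upwards and FBPase, SWEET15 and PRX112 downwards. AMY1.3, an alpha-amylase gene, gave 4.55, 6.25 and 6.07 in wild type and 5.29, 6.17 and 6.72 in the mutant at 7 d, and 9.43, 10.29 and 10.40 in wild type against 4.84, 5.00 and 4.82 at 11 d. The 3 wild-type arrays at 11 d lay above all 9 others, by 3.98 between group means, and the interaction was -5.59 (SE 0.61, adjusted p = 8.07e-05). A second, dim probe set of AMY1.3 did not pass the interaction (-0.55, adjusted p = 0.0789).

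SAUR39, which limits auxin synthesis and transport in rice, was at 8.19, 8.48 and 8.37 in wild type at 11 d and between 4.22 and 5.65 in all other arrays. PIN4, an auxin efflux carrier, was at 7.30, 8.06 and 7.80 there and between 3.84 and 4.71 elsewhere. Their interactions were -4.36 (SE 0.37, adjusted p = 2.06e-05) and -3.20 (SE 0.29, adjusted p = 2.67e-05).

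Downward, SWEET15, a sugar exporter, was at 3.03, 3.62 and 3.87 in wild type at 11 d and between 5.14 and 6.61 elsewhere, with an interaction of 2.90 (SE 0.41, adjusted p = 0.000414). FBPase, fructose-1,6-bisphosphatase, was at 5.30, 5.27 and 5.00 there and between 7.08 and 8.18 elsewhere, with 1.94 (SE 0.27, adjusted p = 0.000354). PRX112, a class III peroxidase, was at 7.59, 6.54 and 6.57 and between 9.06 and 9.73 elsewhere, with 2.69 (SE 0.31, adjusted p = 0.000107). The other probe set of PRX112, at 8.06 to 8.23 in the group means, did not pass (0.03, adjusted p = 0.903).

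For the mutant at 11 d the largest clear upward departures among such genes were AMT1-2, NAS1 and SWEET2B. AMT1-2, an ammonium transporter, gave 8.38, 8.44 and 8.09 in the arrays labelled mutant at 11 d and between 4.85 and 5.70 in the 9 others, with an interaction of 2.96 (SE 0.24, adjusted p = 1.43e-05). NAS1, a nicotianamine synthase, was at 5.83, 6.81 and 6.46 there and between 3.15 and 4.03 elsewhere, at 2.87 (SE 0.38, adjusted p = 0.000267). SWEET2B, of the SWEET family of sugar transporters, was at 8.09, 7.37 and 7.30 there and between 4.77 and 5.45 elsewhere, at 2.47 (SE 0.31, adjusted p = 0.0002). In these 3 genes the array in doubt, the last of each triplet, lay with its group. They were chosen by a large departure of this group, the array included, so they cannot decide whether its label is right.

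Its largest clear downward departures among such genes were HSF03, BBD1 and SAPK9. HSF03, of the heat shock factor family, was at 4.51, 4.45 and 4.20 in the arrays labelled mutant at 11 d and between 7.62 and 8.66 elsewhere. Its interaction was -3.81 (SE 0.21, adjusted p = 3.38e-06). BBD1, a bifunctional nuclease of basal defence, was at 6.10, 6.16 and 6.08 there and between 9.09 and 9.92 elsewhere, at -3.43 (SE 0.26, adjusted p = 1.23e-05). SAPK9, a kinase of abscisic acid signalling, was at 6.75, 6.55 and 6.70 there and between 9.18 and 10.36 elsewhere, at -2.89 (SE 0.15, adjusted p = 3.38e-06).

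Wild type at 7 d departed clearly in 4 named genes. SPX1 and SPX2 encode inhibitors of the transcription factors that drive phosphate starvation responses. SPX1 was at 8.97, 9.56 and 9.08 in wild type at 7 d and between 7.80 and 8.30 elsewhere, and SPX2 was at 7.21, 8.02 and 7.43 and between 6.29 and 6.71 elsewhere. The mutant was lower by 1.12 at 7 d in each, while at 11 d the differences were -0.26 (adjusted p = 0.218) and -0.19 (adjusted p = 0.449), and the interactions were 0.86 (SE 0.20, adjusted p = 0.00866) and 0.93 (SE 0.22, adjusted p = 0.00985). EXP29, an expansin that loosens walls, was higher in wild type at 7 d (8.26, 8.23 and 8.31, against 7.58 to 7.92 elsewhere), and OsPP2C69, a protein phosphatase, was lower (5.70, 5.24 and 5.28, against 5.90 to 6.32). Their interactions were 0.60 (SE 0.12, adjusted p = 0.00314) and -0.73 (SE 0.19, adjusted p = 0.0146).

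Mutant at 7 d departed clearly in 1 named gene, YSL7, of the family of metal chelate transporters. It was at 6.23, 6.13 and 6.25 there and between 5.64 and 5.92 elsewhere, with an interaction of -0.42 (SE 0.12, adjusted p = 0.0283) that passed in 4 of the 12 fits with 1 array fewer. The difference from wild type at 7 d was 0.35 and did not pass (adjusted p = 0.0782).

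**Figure D4:**
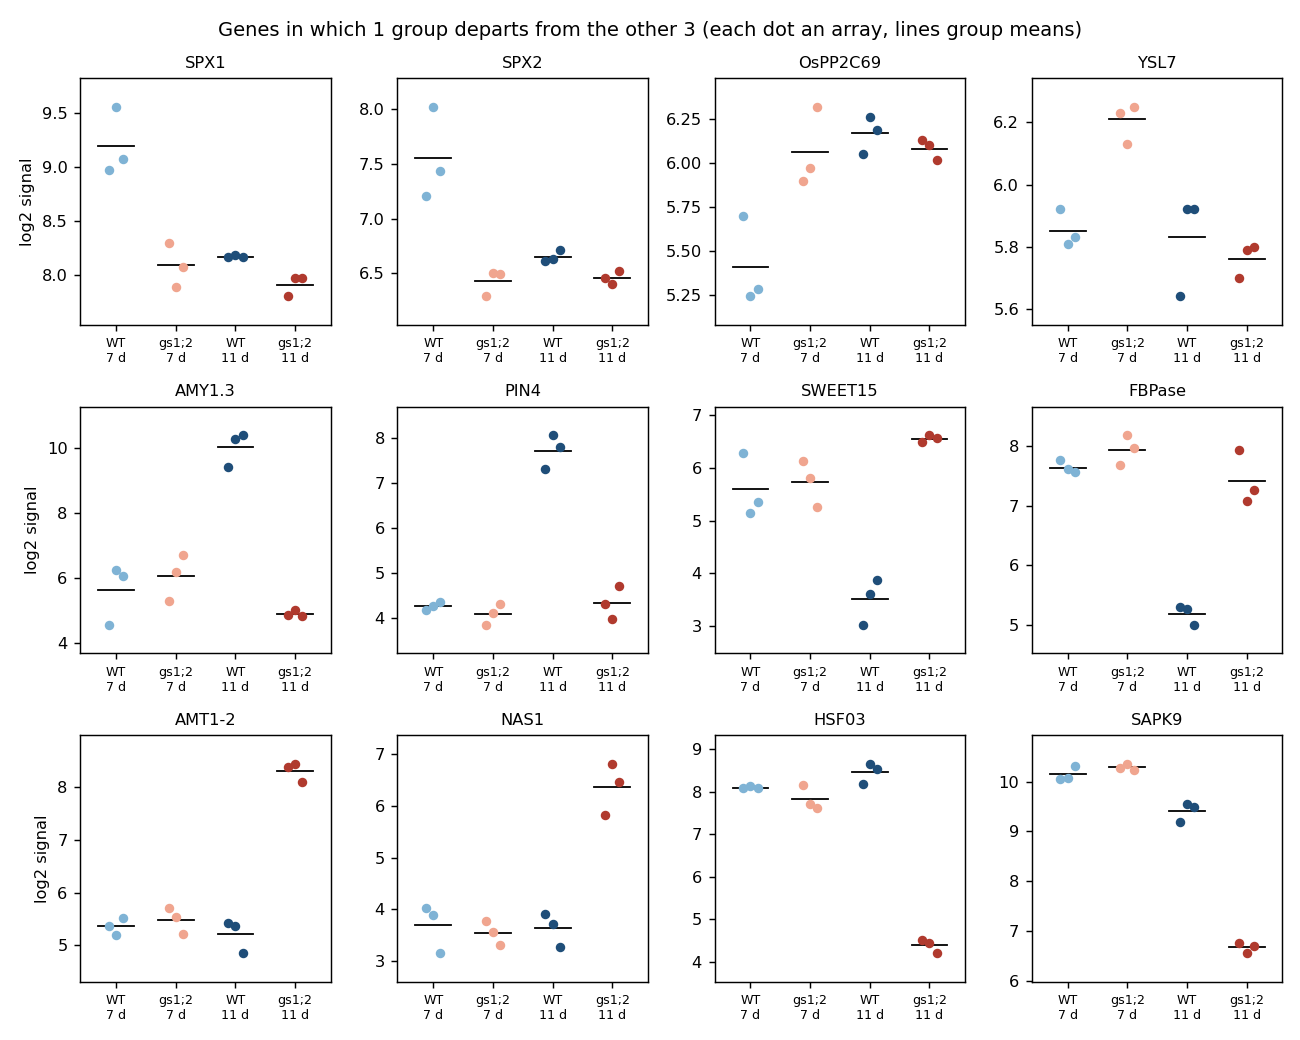
Log2 signal in every array for 12 genes in which 1 group departs from the other 3, with 3 dots and a line at the mean for each group, on an axis that does not start at 0. SPX1, SPX2 and OsPP2C69 depart in wild type at 7 d, YSL7 in mutant at 7 d, AMY1.3, PIN4, SWEET15 and FBPase in wild type at 11 d, and AMT1-2, NAS1, HSF03 and SAPK9 in the arrays labelled mutant at 11 d.

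In nitrogen assimilation, 4 of 18 genes had a higher interaction, 2 a lower one and 12 did not pass, none crossed, and the median difference was 0.21 at 7 d and 0.11 at 11 d. The counts were 5 and 2 when the array labelled mutant 11 d replicate 3 was left out. For this list and every list below, the shares over all genes were 38.2% passing, 18.6% higher and 19.6% lower. A list with counts near these shares does not stand out from all genes. GLT2, an NADH-dependent glutamate synthase, had opposite signs without passing at 7 d. It gave 4.05, 4.18 and 3.75 against 4.59, 4.85 and 4.68 at 7 d, a difference of 0.71 (adjusted p = 0.0931), and 4.84, 5.67 and 5.00 against 3.39, 3.63 and 3.47 at 11 d, a difference of -1.67 (adjusted p = 3.04e-05). Its interaction was -2.38 (SE 0.26, adjusted p = 7.91e-05). In GDH2, which encodes a glutamate dehydrogenase, wild type at 11 d departed, at 11.63, 12.13 and 11.89 against 8.58 to 9.18 in all other arrays, with an interaction of -3.34 (SE 0.21, adjusted p = 5.38e-06).

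NIA1, a nitrate reductase gene, is an example of a change without crossing. It was at 5.48, 5.53 and 5.34 against 7.06, 7.04 and 6.58 at 7 d, and at 4.20, 3.60 and 3.60 against 7.48, 8.11 and 7.30 at 11 d. The mutant was higher at both ages, by 1.44 and 3.83, and the interaction was 2.39 (SE 0.30, adjusted p = 0.000198). A second, dim probe set of NIA1 did not pass (-0.19, adjusted p = 0.507). Of 6 genes of glutamate and arginine use, 2 were higher and 0 lower, the arginine decarboxylase genes ADC1 at 0.65 (adjusted p = 0.00478, with a second probe set at 0.44, adjusted p = 0.0886) and ADC2 at 1.05 (adjusted p = 0.0158). None of 3 nitrate transport genes passed the interaction with limma (0 called).

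The type-A response regulators, which are induced by cytokinin and dampen its signalling, all had a higher interaction, 6 of 6 with 0 lower. In every one the mean of wild type at 11 d was the departing one and the sign changed from lower to higher in the mutant, with a median difference of -0.22 at 7 d, where none of the 6 passed, and 1.32 at 11 d. Wild type at 11 d departed clearly in 3 of the 6. Over all genes that passed, it was the departing group in 77.6% and departed clearly in 39.9%, and the sign changed in 5427 of 6835. RR9 was at 9.03, 8.75 and 9.08 against 8.89, 8.80 and 8.54 at 7 d, and at 6.81, 6.86 and 6.94 against 9.76, 9.17 and 9.84 at 11 d. Its interaction was 2.93 (SE 0.23, adjusted p = 1.31e-05), and those of RR4, RR1 and RR6 were 2.24, 1.67 and 1.38. Of 13 genes of cytokinin metabolism 1 was higher and 4 lower, with CKX3, which breaks cytokinin down, at 1.56 and LOGL9, LOGL6 and LOGL3, of the family that activates it, at -1.58, -0.97 and -1.65. The remaining lower one was CKX5 (named after its values were seen), of the same family as CKX3, at -0.60 (adjusted p = 0.0368). The breakdown genes thus went both ways.

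Of 7 strigolactone and tillering genes 4 had a lower interaction and 0 a higher one, and wild type at 11 d departed clearly in all 4. They were the strigolactone receptor gene D14 at -1.99 (adjusted p = 0.000205), the F-box gene D3 at -1.14 (adjusted p = 0.00267), IPA1, a regulator of shoot branching, at -0.85 (adjusted p = 0.00466) and SMAX1L at -0.74 (adjusted p = 0.0213), whose call held in 10 of the 12 fits with 1 array fewer. Group means of D14 were 10.51 in wild type and 10.58 in the mutant at 7 d, and 12.33 and 10.41 at 11 d. Over all genes that passed the interaction, wild type at 11 d departed clearly in 39.9%.

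The auxin list was split, with 10 of 59 genes higher and 17 lower (9 and 15 without the array in doubt), among them ARF10, an auxin response factor, at 1.79 and PIN5 at 1.99, beside SAUR39 and PIN4. Of 36 jasmonate genes 4 were higher and 6 lower (4 and 4 without it), with OPR1 at 1.78, LOX3 at -3.20, COI1B at -0.63 and COI1 at -0.49. The 16 diterpenoid phytoalexin genes had 0 interaction calls with limma, and 3 higher ones without the array labelled mutant 11 d replicate 3. Their median differences were 0.50 at 7 d and 0.84 at 11 d, of the same sign.

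Of 21 genes of photosynthesis and greening, 11 had a higher and 1 a lower interaction, and the departing group was the mutant at 11 d in 7 and wild type at 11 d in 5 of these 12. Over all genes with a passing interaction the shares of these groups were 13.7% and 77.6%. The departure was clear for the mutant in 5 and for wild type in 4 of the 12, against 4.73% and 39.9% over all such genes. The median difference was 0.09 at 7 d and 1.04 at 11 d. PORA, which makes chlorophyllide in the light, was at 8.88, 8.62 and 8.13 against 8.88, 8.46 and 8.71 at 7 d, and at 8.50, 8.20 and 8.04 against 10.51, 10.59 and 10.38 at 11 d. Its interaction was 2.11 (SE 0.25, adjusted p = 0.000135). CAO, which makes chlorophyll b, was at 2.18, PSAG, of photosystem I, at 1.77 (a second probe set at 0.31, adjusted p = 0.0760) and PORB, in which wild type at 11 d departed, at 1.23.

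The summed level of the 9 green leaf markers, which share genes with that list, was 13.34 to 13.79 in wild type and 13.57 to 13.80 in the mutant at 7 d, 13.51 to 13.63 in wild type at 11 d and 14.19 to 14.31 in the arrays labelled mutant at 11 d. The last range lay above all others, and its part in the results was not tested.

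In the circadian clock list 4 of 7 genes had a lower interaction and 1 a higher one, and the mutant at 11 d was the departing group in 4 of these 5. It departed clearly in 2 of them. PCL1, a component of the evening complex, was at 10.85, 10.92 and 11.06 against 11.01, 11.09 and 10.87 at 7 d, and at 7.40, 7.69 and 7.83 against 3.81, 4.21 and 3.86 at 11 d. CCA1, a morning gene, was at 6.74, 6.53 and 6.42 against 6.70, 6.46 and 6.28 at 7 d, and at 10.63, 10.25 and 10.18 against 11.86, 11.62 and 11.77 at 11 d. The groups at 7 d overlapped in both genes, and both genotypes moved the same way with age, the mutant farther. The interactions were -3.73 for PCL1 and 1.49 for CCA1, and those of GI and PRR1 were -1.33 and -1.87. A second, dim probe set of CCA1 did not pass (0.33, adjusted p = 0.0722). The hour of harvest is not given in the sources used here, and the part of clock phase in the other results was not tested.

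Among 65 kinase and phosphatase genes of abscisic acid signalling and their families, 6 were higher and 22 lower (6 and 20 without the array in doubt), with a median of 0.12 at 7 d and -0.07 at 11 d. Beside SAPK9, the phosphatase genes OsPP2C25, OsPP2C61 and OsPP2C02 were at -2.02, -2.41 and -1.31. The SPX and phosphate list had 3 higher and 4 lower of 19, with SPX4 at -1.12, the phosphate transporter gene PHT1-1 at -0.99 (a second probe set at -0.58, adjusted p = 0.195) and the regulator gene PHR3 at -1.01, all opposite in sign to SPX1 and SPX2.

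Of 27 iron status genes 7 were higher, 9 lower and 1 crossed, YSL15, and 6 were higher and 9 lower without the array in doubt. In all 16 that passed the sign of the estimates changed between the ages, although just 1 of the 27 passed at 7 d. The sign changed as well in 5427 of the 6835 genes that passed among all genes. NAS2, a nicotianamine synthase, was at 2.33 (adjusted p = 7.33e-05) and IDEF1, a regulator of the iron deficiency response, at -0.94 (adjusted p = 0.00027). Sugar genes were mixed. Of 16 SWEET and SUT genes 4 were higher and 3 lower (4 and 2 without that array), with SWEET14 at -3.17, and of 37 starch and sucrose genes 7 were higher and 10 lower (6 and 9 without it), with HXK6 at -3.25, HXK4 at -1.46, SUS4 at -2.42 and SPS2 at 1.12.

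Of 56 expansin and primary wall genes 14 were higher and 9 lower (13 and 8 without the array in doubt), with CSLF6, a synthase of mixed-linkage glucan, at 1.98, OsCslF8 at 1.19, CESA5 at 0.96 and EXLA2 at -1.71. The 2 other probe sets of CSLF6, both dim, did not pass. Of 45 heat shock genes 11 were higher and 8 lower (11 and 7 without it), with HSP26.2 at 1.39, HSP24.1 at 2.57 and HSP81-1 at 0.96 (a second probe set at 0.50, adjusted p = 0.0952). In the cyclin list CYCP2-1 was at 1.77 and CYCD3-2 at 0.86, while the probe sets of CYCD5-2 disagreed, at -0.77 (adjusted p = 0.00165) and 0.65 (adjusted p = 0.00262).

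**Figure D5:**
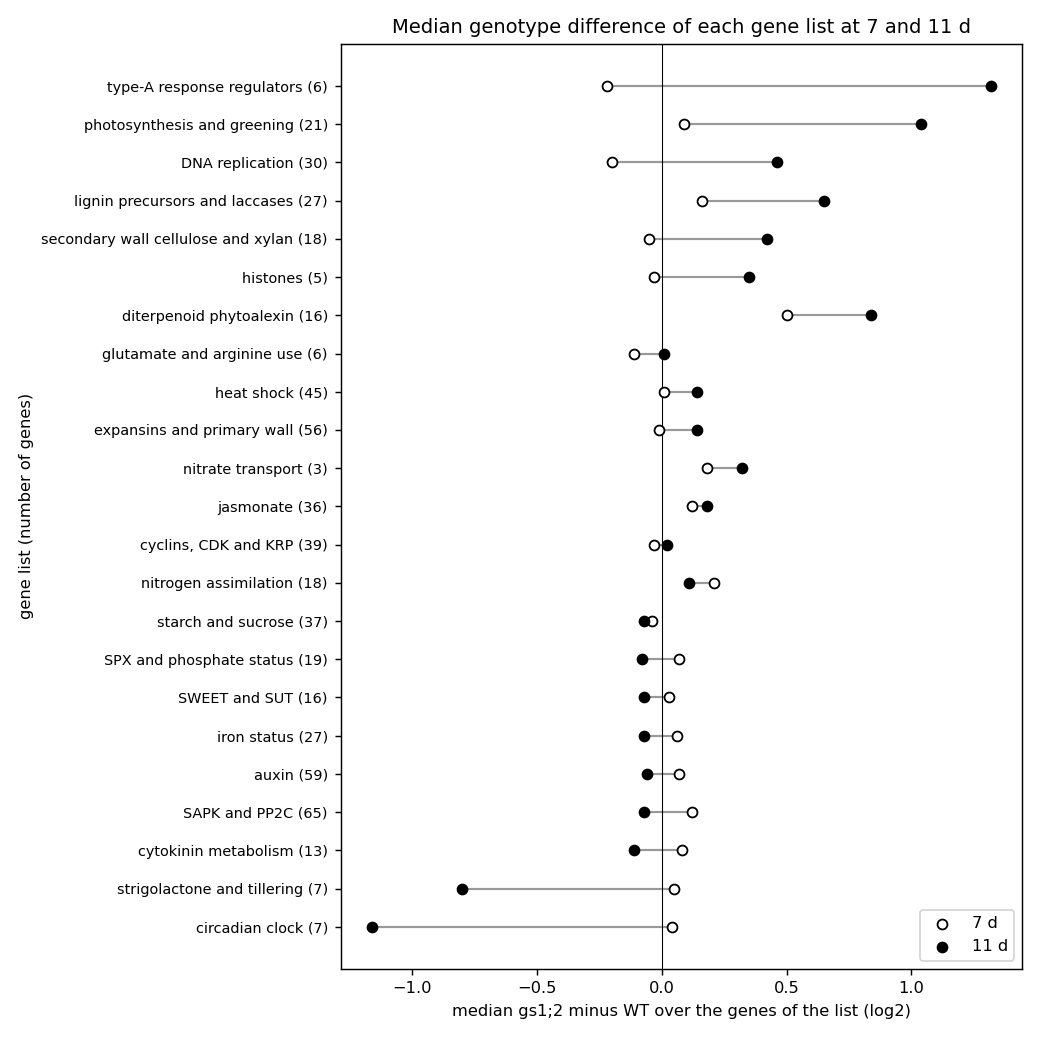
Median difference mutant minus wild type (log2) over the genes of each list at 7 d (open circles) and 11 d (filled circles), with the number of genes in brackets and lists ordered by the median interaction. Type-A response regulators go from -0.22 to 1.32, DNA replication from -0.20 to 0.46, strigolactone and tillering from 0.05 to -0.80 and the clock list from 0.04 to -1.16. The medians over all genes, not drawn, are 0.01 and 0.02.

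Markers of other tissues were read as well. Over all genes 38.2% passed the interaction. Of 6 root markers 4 had a higher interaction and 1 a lower one (4 and 0 without the array in doubt), with a summed level of 10.07 to 10.19 in wild type and 9.72 to 10.00 in the mutant at 7 d. At 11 d the sum was 9.44 to 9.63 in wild type and 9.84 to 10.00 in the arrays labelled mutant. Of 7 seed storage genes 2 were lower, GLUA-2 at -2.30 and GLUA-1 at -0.82 (named after their values were seen), and 5 did not pass. The list was dim, with a median level of 3.14 to 3.71 in the 4 groups, beside 8.27 to 8.33 over all genes. The summed level of these 7 was 10.30 to 10.43, 10.28 to 10.42, 10.32 to 10.56 and 9.82 to 10.01 in the 4 groups in the order wild type and mutant at 7 d, wild type and arrays labelled mutant at 11 d. Their part in the results was not tested.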

How the data were processed

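Expression was measured in 12 arrays. The deposited values are log2 signals. Per the submitters' processing notes the authors used RMA (robust multi-array average) and R 3.1.0, and no further settings are stated in the labels. The table holds 57381 probe sets without missing values. Array medians were 4.944 to 5.005, so no scaling was added, and 187 control probe sets were left out. No detection call comes with the values, and precision is limited by the number of arrays. No pair of arrays was identical (0 pairs).

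All 12 arrays were fitted with limma 3.58.1 (R 4.3.3), a mean per group and default moderation, with 8 residual degrees of freedom. P-values are two-sided and adjusted by Benjamini-Hochberg over 57194 probe sets. The fit was tested on simulated data. The design text calls the arrays biological replicates, but the labels do not say whether plants were pooled.

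Genes were named from the platform's annotation and, since most RefSeq symbols are identifiers, through the synonyms of the RefSeq gene table of assembly ASM3414082v1. A single gene was listed for 22436 probe sets, several for 95 and none for 34663, and 2458 of 17905 genes had an informative name. Lists were matched by symbol or synonym and count 1 probe set per gene, the one with the highest mean. The named genes are the 8 crossing genes with the largest interaction each way (fewer where fewer passed), the 3 largest clear departures each way for each group, up to 4 members of each list with the smallest p that passed, crossing list members and GLN1-2. Any other gene is marked as picked with its values known. The members and lists were chosen with earlier results of these data known. Alternatives were trend and robust moderation, a filter on dim probe sets, quantile normalization, array weights, a block for the title number, other counting rules and leaving out each array.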

Additional observations from a re-analysis of the deposited data

Results flagged for a closer look

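The genotype difference itself differed between the ages, tested as an interaction with limma, for 11780 probe sets and for 104 of the 105 genes and probe sets named, the exception being GLN1-2. A passing interaction was a condition for naming all of them but GLN1-2, so the 104 are a listing and their share is no result. Values are the interaction on the log2 scale, each with an adjusted p under the threshold, and no explanation was weighed. Crossing genes were KRP6 (-2.23), YSL15 (-1.78), AGO18 (-1.26), STLP3 (-1.14), BC1 (3.31), CESA7 (1.75), CESA4 (1.61), ORC3 (1.10), RH10 (1.07), RFC5 (0.95), WDR12 (0.76) and RAN1 (0.76). Crossing probe sets without an informative name were LOC4344199 (-4.40), LOC4343485 (-3.65), LOC4324704 (3.29) and 3 with no gene listed (-5.02, 5.11 and 4.12).

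With wild type at 11 d as the departing group, the difference was higher at 11 d than at 7 d in RR9 (2.93), SWEET15 (2.90), PRX112 (2.69), NIA1 (2.39), RR4 (2.24), PIN5 (1.99), CSLF6 (1.98), FBPase (1.94), ARF10 (1.79), OPR1 (1.78), CYCP2-1 (1.77), RR1 (1.67), CKX3 (1.56), RPA1B (1.44), CAD2 (1.39), HSP26.2 (1.39), RR6 (1.38), GT43A (1.24), PORB (1.23), OsCslF8 (1.19), SPS2 (1.12), PCNA (1.12), MCM3 (1.11), OsMCM6 (1.06), ADC2 (1.05), CESA5 (0.96), CYCD3-2 (0.86), H2B.10 (0.71), ADC1 (0.65), H2B.7 (0.56), H2B.5 (0.42) and H2B.6 (0.30). The same group departed, with a lower difference at 11 d, in AMY1.3 (-5.59), SAUR39 (-4.36), GDH2 (-3.34), HXK6 (-3.25), PIN4 (-3.20), LOX3 (-3.20), SWEET14 (-3.17), LAC7 (-3.12), SUS4 (-2.42), OsPP2C61 (-2.41), OsPP2C25 (-2.02), D14 (-1.99), SUT1 (-1.81), EXLA2 (-1.71), LOGL3 (-1.65), LOGL9 (-1.58), OsPP2C02 (-1.31), D3 (-1.14), SPX4 (-1.12), PHR3 (-1.01), PHT1-1 (-0.99), LOGL6 (-0.97), IDEF1 (-0.94), IPA1 (-0.85), CYCD5-2 (-0.77), SMAX1L (-0.74), COI1B (-0.63) and COI1 (-0.49). With mutant at 11 d as the departing group, the difference was higher at 11 d than at 7 d in AMT1-2 (2.96), NAS1 (2.87), HSP24.1 (2.57), SWEET2B (2.47), NAS2 (2.33), LAC10 (2.31), CAO (2.18), PORA (2.11), PSAG (1.77), CCA1 (1.49), CESA9 (1.37) and HSP81-1 (0.96). It was lower at 11 d, with the same departing group, in HSF03 (-3.81), PCL1 (-3.73), BBD1 (-3.43), SAPK9 (-2.89), GLT2 (-2.38), PRR1 (-1.87), HXK4 (-1.46), GI (-1.33) and CAD8C (-0.87). With a 7 d group as the departing one it changed in OsPP2C69 (-0.73), SPX1 (0.86), SPX2 (0.93), EXP29 (0.60) and YSL7 (-0.42). Every gene has a departing group by the rule, so the group need not stand apart clearly. Mutant at 11 d did not depart clearly in HSP24.1, LAC10, PSAG, CCA1, CESA9, PCL1, GLT2, HXK4 and CAD8C. Wild type at 11 d did not in NIA1, ARF10, RPA1B, CAD2, HSP26.2, RR6, ADC2, CESA5, CYCD3-2, ADC1 and H2B.7. Nor did it in LOX3, OsPP2C25, SUT1, LOGL3, LOGL9, OsPP2C02, PHR3, PHT1-1 and LOGL6. All 104 passed as well when the array labelled mutant 11 d replicate 3 was left out.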

How the results depend on the processing

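The 105 named interactions were recomputed under 17 other settings, which gave 1785 values. None reversed (0), and 1763 kept their side of the threshold. Calls were lost for H2B.6 (10 fits that leave out an array and quantile normalization), YSL7 (8 fits that leave out an array) and SMAX1L (2 fits), while GLN1-2 passed without the array labelled mutant 11 d replicate 3. The interaction passed for 9610 to 12183 probe sets when an array was left out. It passed for 3133 with a size of at least 1 and for 6835 genes at 1 probe set per gene. The counts of calls at 11 d (11606 to 15208), with age in wild type (15302 to 18575) and with age in the mutant (3307 to 4793) stayed within 1.5 times when an array was left out.

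The 7 d count was 1183 with trend and robust moderation and 321 with array weights, and 130 to 1556 when an array was left out. By array left out, the moves over 1.5 times were to 310, 130 and 238 for wild type at 7 d replicates 1, 2 and 3, to 1556, 270 and 176 for mutant at 7 d in the same order, to 363 for wild type at 11 d replicate 2, and to 370 for mutant at 11 d replicate 1. The crossing count was 397 with trend and robust moderation, 83 with array weights, 73 at 1 probe set per gene, and 435 when both differences had to reach 0.5 with no test at the single ages. It was 15 to 730 when an array was left out. Clear departures lay at 95 to 279 for wild type at 7 d, 31 to 91 for mutant at 7 d, 3529 to 4620 for wild type at 11 d and 429 to 564 for mutant at 11 d. Those of wild type at 7 d moved without its replicate 3 (252), mutant 7 d replicate 1 (279), wild-type 11 d replicate 2 (95) and the arrays labelled mutant 11 d replicate 1 (99) and 2 (96), and those of mutant at 7 d without its replicates 1 (87) and 2 (91) and wild-type 11 d replicates 1 (34) and 2 (31). With a range of the other means up to the whole gap, the counts in the same order were 588, 141, 7129 and 1048. By tests, wild type at 7 d departed in 84 and mutant at 7 d in 33. The causes of these shifts were not tested. With the title number as a replicate block, 12007 probe sets passed the interaction and 186 crossed. Title numbers shared between groups are 2 in number, the labels do not say that they pair arrays, and the correlation within a number was 0.0635.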
